A study of Drosophila melanogaster with 3 samples.

Results

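The genes described here are the Cpr genes of Drosophila melanogaster, a family of structural cuticle protein genes, and the measurement is where a tagged transcription factor was recovered near them. They were taken as all protein-coding genes whose symbol begins with Cpr followed by a digit, which gave 70 of the 13945 protein-coding genes on the chromosome arms. The chromatin came from whole embryos aged 4 to 14 hours, from a transgenic line that stably expresses gooseberry-neuro (gsb-n) with green fluorescent protein at its C-terminus, and the immunoprecipitation used an antibody against that tag. All 3 samples are biological replicates of this 1 group. No untagged or control sample was analysed here, so the counts of genes with a peak have no counterpart from control chromatin. The labels do not say how the animals of a replicate were pooled, nor whether the tagged copy replaced the endogenous gene. Since the embryos were taken whole, the tissue that gave a peak is unknown.

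Cpr proteins carry the Rebers and Riddiford consensus, a region that binds chitin, and are secreted by epidermal and other ectodermal cells into the cuticle. Different members are transcribed in waves at different moults, many lie in tandem arrays of short genes, and the embryonic cuticle is laid down late in embryogenesis. Gsb-n belongs to the Pax family, whose members bind DNA through a paired domain and often a homeodomain too, and is known for its role in the central nervous system. Membership rests on the gene symbol alone, since no protein sequence was used here, and other genes of the Rebers and Riddiford class have symbols such as Lcp or Ccp.

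In the authors' strictest peak list, Gsb-n peaks were found near few Cpr genes and within 500 bp of none of their start sites. Each peak summit was assigned to the gene with the nearest protein-coding transcription start site (TSS), and a gene with at least 1 summit is said to have a peak. The authors' strictest list holds 5746 peaks chosen by irreproducible discovery rate (IDR), and 11 of them fell to 8 of the 70 Cpr genes, which is 11.4% (95% Wilson interval 5.91 to 21.0). Of all protein-coding genes, 22.1% had such a peak. The 8 genes were Cpr92A, Cpr76Ba, Cpr67Fb, Cpr78Cb, Cpr35B, Cpr100A, Cpr65Ay and Cpr65Eb. The lists hold no read counts, so the depth behind a peak is unknown.

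The summit sequences that hold TAATTA or AACCGGTT outside any annotated exon are shown here, beside that of Cpr76Ba, the second strongest peak, which holds none of the motifs set in capitals. Each window is the summit with 100 bp to either side, from the RefSeq copy of genome release 6 (dm6), on the plus strand. Capitals mark TAATTA, the core site of many homeodomain proteins, AACCGGTT, a site of the epidermal regulator Grainyhead, and GAGAG, the element of the GAGA factor.
Cpr92A, chr3R:19584822-19585022, plus strand: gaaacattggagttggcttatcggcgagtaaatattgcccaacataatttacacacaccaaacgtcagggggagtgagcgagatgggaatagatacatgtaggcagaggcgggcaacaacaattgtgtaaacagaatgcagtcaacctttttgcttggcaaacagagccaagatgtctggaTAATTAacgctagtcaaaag
Cpr92A, chr3R:19585039-19585239, plus strand: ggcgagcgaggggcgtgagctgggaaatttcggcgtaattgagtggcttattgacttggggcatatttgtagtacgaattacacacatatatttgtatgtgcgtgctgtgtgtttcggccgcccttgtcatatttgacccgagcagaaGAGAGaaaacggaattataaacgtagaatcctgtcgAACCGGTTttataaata
Cpr76Ba, chr3L:19516642-19516842, plus strand: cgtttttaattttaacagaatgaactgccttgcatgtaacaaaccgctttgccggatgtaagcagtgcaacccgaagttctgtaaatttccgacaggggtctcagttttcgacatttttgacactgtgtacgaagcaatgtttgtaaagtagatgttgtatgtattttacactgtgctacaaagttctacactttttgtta
Cpr100A, chr3R:30865550-30865750, plus strand: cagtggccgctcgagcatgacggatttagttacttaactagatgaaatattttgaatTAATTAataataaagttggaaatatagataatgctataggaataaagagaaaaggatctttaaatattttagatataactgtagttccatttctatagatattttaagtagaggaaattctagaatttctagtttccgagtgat
Cpr65Ay, chr3L:6159317-6159517, plus strand: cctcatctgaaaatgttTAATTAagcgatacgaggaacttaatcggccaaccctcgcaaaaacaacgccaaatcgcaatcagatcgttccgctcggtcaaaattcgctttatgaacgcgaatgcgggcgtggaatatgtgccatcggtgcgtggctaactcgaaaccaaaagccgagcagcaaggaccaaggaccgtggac

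TAATTA was in 4 of the 11 Cpr summit windows (36.4%), at Cpr92A, Cpr67Fb, Cpr100A and Cpr65Ay, against 17.3% of all 5746 IDR windows and 16.7% of the 3715 that lie, like those 11, over 500 bp from a TSS. Among the 70 windows of the relaxed pooled list that fell to Cpr genes, 14 held it (20%, against 15.4% of all 30000 pooled windows). AACCGGTT was in 1 Cpr window, the weaker of the pair at Cpr92A, against 0.296% of all IDR windows and 0.269% of the distant ones. GAGAG was in 2 of 11 windows (18.2%, against 23.2% and 23.7%). GTTCC, a short core bound by paired domains, was in 3 (27.3%, against 19.6% and 19.3%), and TATAAA in 4 (36.4%, against 34.1% and 32.7%). All motifs were searched on both strands. No Cpr window held the paired-domain cores GTCACGC or GTCACGG (2.66% of all IDR windows and 2.66% of the distant ones) or the palindromic homeodomain sites with 2 (2.58% and 2.31%) or 3 (2.91% and 2.66%) bases in the middle. None held TATCGATA (2.63% and 0.350%) or GGTCACACT (1.64% and 0.135%), which were rare in distant windows. These are matches of letters in 11 windows. The mean GC content of the Cpr windows was 38.7%, against 37.1% over all IDR windows and 37.5% over the distant ones. Among the 4 windows with TAATTA it was 19.4% at Cpr67Fb, 27.9% at Cpr100A, 43.8% at Cpr92A and 49.8% at Cpr65Ay.

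The low share of Cpr genes with a peak was met in every replicate. Each replicate's own list holds 30000 relaxed peaks, and the top 5746 by signal were used so that they match the IDR list in length. In replicates 1, 2 and 3 the number of Cpr genes with a top peak was 7, 7 and 7 of 70, or 10% in each. The background over all genes was 22.8%, 22.2% and 23.9%. The difference, Cpr genes minus all genes, was -13.0 ± 0.862 percentage points (SD, n = 3), lower in 3 of 3 replicates. The Cpr count was 7 in each, so this SD holds only the variation of the background. It does not cover the uncertainty of a count of 7 of 70, whose 95% Wilson interval is 4.93 to 19.2%. The Wilson intervals take the 70 genes as independent, though 41 of them lie next to another Cpr gene. The exact sign-flip permutation test over the 3 replicates gave a two-sided p = 0.25, the smallest this design allows. The replicates named nearly the same members: 6 Cpr genes had a top peak in all 3, 1 in 2 (Cpr65Ay) and 1 in 1 (Cpr65Eb), and the other 62 had none in any. The matching overlap over all genes was not computed, so this overlap is not read as particular to Cpr genes.

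Split by distance, the gap to all genes was wide near the start sites and narrow farther away. Within 500 bp of a TSS, 0 of 70 Cpr genes had an IDR peak, against a background of 13.2%. A count of 0 of 70 allows a share of up to 4.29% if 3 genes are taken as its limit, and the 95% Wilson interval reaches 5.20%. The count was also 0 in the top peaks of replicates 1, 2 and 3, where the background was 13.5%, 13.4% and 15.9%. It stayed 0 when any IDR summit within 500 bp of one of the 77 Cpr start sites was counted, whichever gene was nearest. Over 500 bp from a TSS, 8 of 70 Cpr genes (11.4%) had an IDR peak against 12.8% of all genes. For those distant peaks the top lists gave 10% of Cpr genes in each replicate against 12.8%, 12.8% and 11.9% of all genes, a difference of -2.48 ± 0.548 percentage points (SD, n = 3, exact sign-flip permutation p = 0.25).

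**Figure D1:**
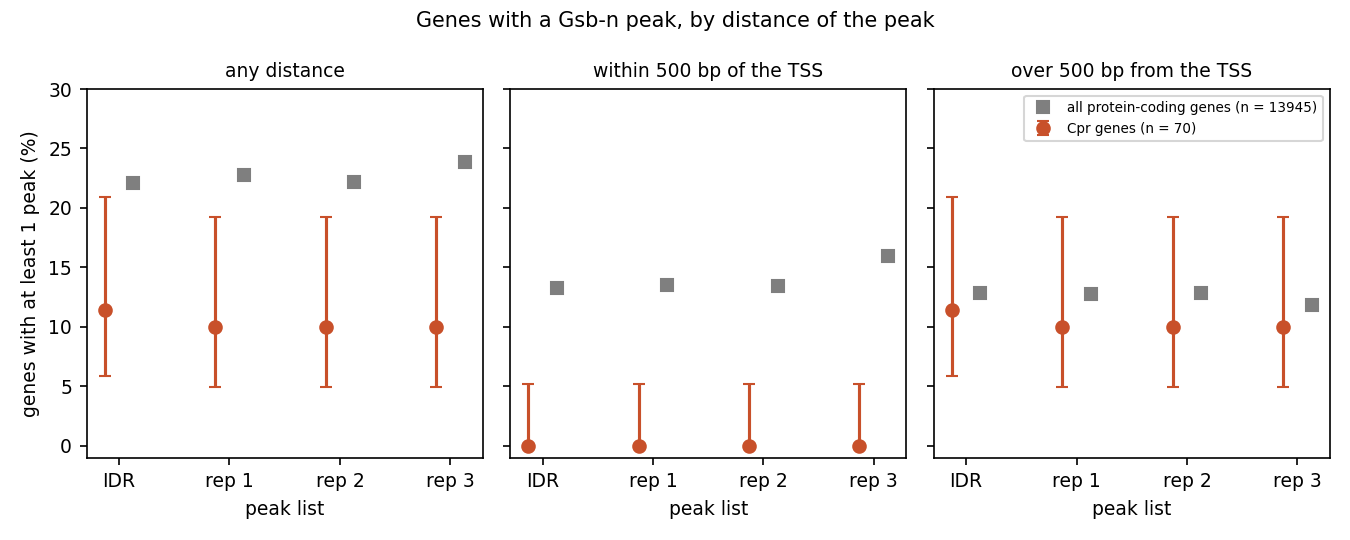
Share of genes with at least 1 Gsb-n peak (vertical axis, percent) in the IDR list and in the top 5746 peaks of each replicate, for peaks at any distance, within 500 bp of a TSS and farther away. Circles are the 70 Cpr genes with 95% Wilson intervals and squares are all 13945 protein-coding genes. The Cpr share is 0 in each list within 500 bp, and farther out the squares lie inside the Cpr intervals.

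The amount of sequence nearest to Cpr genes was small and gave a like picture. The territory of a gene, the stretch of the arms nearer to its TSSs than to any other protein-coding TSS, had a median of 3.36 kb for Cpr genes (0.878 to 16.8 kb) and 4.32 kb for all genes. Cpr territory summed to 0.348 Mb and held 31.6 IDR peaks per Mb (exact Poisson 95% interval 15.8 to 56.5), against 42.9 over the arms. In the 0.0737 Mb of it within 500 bp of a TSS there were 0 peaks per Mb (0 to 50.04), where the arms have 132.6. In the rest of it there were 40.1 (20.01 to 71.7) against 31.3, and 30.9 (13.4 to 60.9) without Cpr35B, the member with the most peaks. These intervals cover counting error only.

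By length of territory, the gap to all genes was widest among the longest Cpr territories and about 1 gene or less in the shorter classes. Of 17 Cpr genes with under 2 kb, 1 had an IDR peak (5.88%, against 10.8% of all genes of that class). From 2 to 5 kb it was 3 of 25 (12% against 15.0%), and from 5 to 20 kb it was 4 of 28 (14.3% against 28.0%). No Cpr gene had over 20 kb, a class in which 49.9% of all genes had a peak. With so few genes a class the differences between classes were not tested.

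The strongest Cpr peak lay far from its gene. It spans chr3R:19584798-19585054 with a signal of 707.3 (rank 440 of the IDR list), in an intron of Dystrophin (Dys), which encodes a cytoskeletal anchor of muscle and nerve, and 14033 bp downstream of the Cpr92A start site. Its ranks in replicates 1, 2 and 3 were 417, 446 and 461 (441.3 ± 22.4, SD, n = 3). The replicates placed this peak at nearly the same rank. A second IDR peak, chr3R:19585000-19585200 with a signal of 282.5, had its summit 13816 bp from the same start site. Its ranks were 2075, 16770 and 13624, so it was a top peak in replicate 1 alone. When non-coding genes were allowed as nearest gene, a small nucleolar RNA gene was closer to both summits and Cpr92A no longer counted. The nearest other protein-coding start site, one of Dys itself, was 15712 bp from the stronger summit.

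Cpr76Ba and Cpr67Fb had the next strongest peaks, both with summits outside protein-coding genes. The Cpr76Ba peak, chr3L:19516534-19516949, had a signal of 406.5 and lay 1590 bp downstream of the TSS, past the end of the gene. Its ranks of 1544, 1437 and 956 (1312 ± 313.2, SD, n = 3) put it among the top peaks of each replicate. Cpr76Ba opens an array of 4 Cpr genes in 76B, and the other 3 had no IDR peak and no pooled peak. The Cpr67Fb peak, chr3L:10893377-10893792, had a signal of 314.8 and was the closest of all to a Cpr start site, 588 bp upstream. Its ranks were 2285, 2239 and 2565 (2363 ± 176.4, SD, n = 3), again close together. The summit window of this peak overlapped an annotated exon.

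Cpr78Cb, Cpr100A and Cpr35B followed. The Cpr78Cb peak, chr3L:21296234-21296649 with a signal of 288.0, had its summit inside an exon of the gene, 1046 bp downstream of its nearest TSS. Its ranks were 3986, 1941 and 2156 (2694 ± 1124, SD, n = 3), weakest in replicate 1. The Cpr100A peak, chr3R:30865442-30865857, had a signal of 254.3 and lay 1871 bp upstream, on the side of the terminal gap gene tailless (tll), with ranks of 3885, 3106 and 1780 (2924 ± 1064, SD, n = 3). Cpr35B, on its own between Pburs, which encodes a subunit of the cuticle-tanning hormone bursicon, and CG15283, had 3 IDR peaks in the largest Cpr territory (16.8 kb). Their signals were 262.1, 212.8 and 203.2, at 10788 and 7449 bp upstream and 1606 bp downstream. The first ranked 3608, 2235 and 3945, the second 2085, 6923 and 6708, and the third 8571, 2377 and 4838. Only the first was a top peak in all 3 replicates. With non-coding genes allowed, a long non-coding RNA gene was nearer to the first and second summits, at 5155 and 1816 bp. The third summit stayed with Cpr35B.

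The weakest of the 11 peaks were in tandem arrays on 3L. The Cpr65Ay peak, chr3L:6159209-6159624 with a signal of 191.8, lay 787 bp upstream of Cpr65Ay and 1397 bp from Cpr65Az, and ranked 4239, 6127 and 3111. The Cpr65Eb peak, chr3L:7090698-7091113 with a signal of 164.3, was at rank 5435, near the end of the IDR list, whose lowest signal is 158.2. It ranked 6298, 4543 and 6785. It lies almost midway between Cpr65Eb (2119 bp) and Cpr65Ec (2298 bp), and the matching summit of replicate 1 was nearer to Cpr65Ec. The strongest Cpr peak left out of the IDR list was at Cpr35B, with a signal of 154.1 at rank 6000 of the pooled list.

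**Figure D2:**
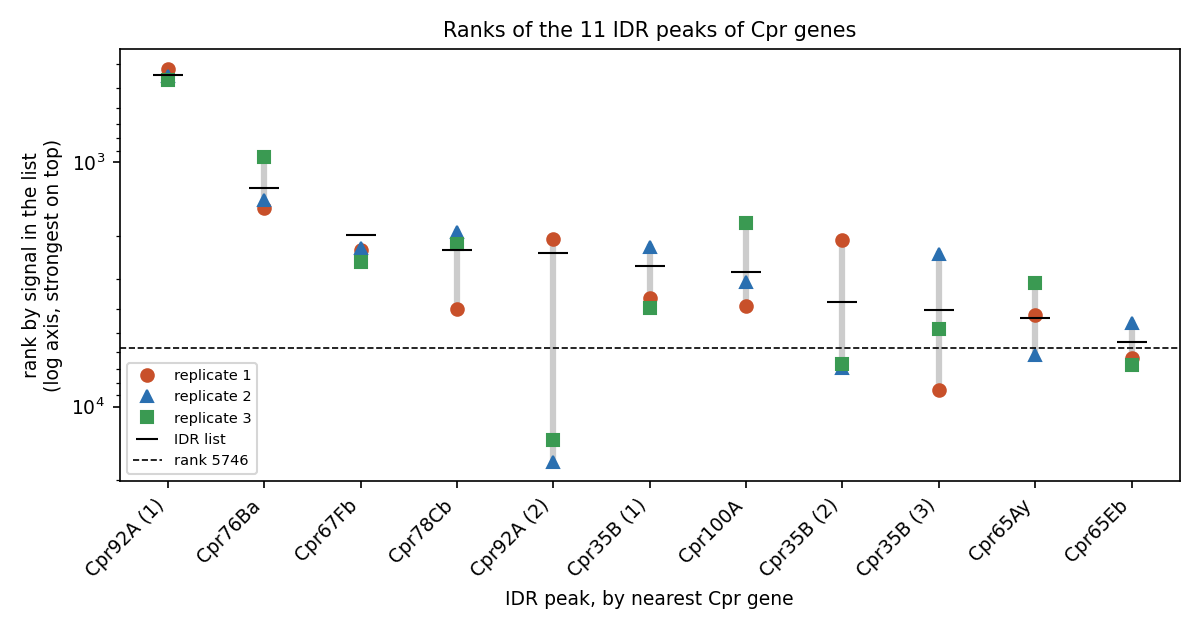
Rank by signal (vertical axis, log scale, strongest on top) of the 11 IDR peaks of Cpr genes in replicates 1, 2 and 3 and in the IDR list, with the dashed line at rank 5746. The strongest Cpr92A peak ranks 417 to 461, while the second Cpr92A peak runs from 2075 to 16770.

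As a set, the 11 peaks were of ordinary strength and recurred in the replicates. Their median signal was 262.1 (164.3 to 707.3), against 250.3 over all IDR peaks, and 7 of 11 were above that value. All 11 had a summit within 100 bp in the full list of every replicate, as had 89.4% of all IDR peaks, and 6 of 11 were top peaks in all 3. The share of all IDR peaks that were top peaks in all 3 was not computed. The IDR list was made from these replicates, so this recurrence is partly built in. The median distance to the TSS was 1871 bp (588 to 14033), against 1561 bp over all IDR peaks, of which 35.3% lay within 500 bp. Upstream of the gene lay 6 of the 11. Judged by protein-coding genes alone, 8 summits were intergenic, 2 intronic and 1 exonic.

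The relaxed lists reached more members but kept the sparse promoters. In the pooled list, which holds 30000 peaks including all IDR peaks, 70 peaks fell to 28 Cpr genes (40.0%, against 45.1% of all genes). In the full lists of replicates 1, 2 and 3 it was 29, 32 and 31 Cpr genes (41.4%, 45.7% and 44.3%), against 48.8%, 47.6% and 54.2% of all genes. Within 500 bp of a TSS the pooled list had a peak for 7 Cpr genes (10% against 31.0%), and farther away for 25 (35.7% against 31.4%). The deposited −log10 q-values of the 70 pooled peaks ran from 4.02 down to 0.236. For the 7 within 500 bp they ran from 2.05 (Cpr65Av) to 0.325 (Cpr65Eb). Many of the relaxed calls thus had little support. The full replicate lists had a peak within 500 bp for 8, 12 and 8 Cpr genes, where 32.7%, 32.9% and 38.3% of all genes had one. The mean was 13.3% ± 3.30 (SD, n = 3), against 34.6% ± 3.17 (SD, n = 3) of all genes. The difference was -21.3 ± 5.55 percentage points (SD, n = 3, lower in 3 of 3, exact sign-flip permutation p = 0.25). A relaxed promoter peak was found for 3 members in all 3 replicates (Cpr67Fa1, Cpr78Cb and Cpr65Av), for 4 in 2 and for 11 in 1. The matching split over all genes was not computed.

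**Figure D3:**
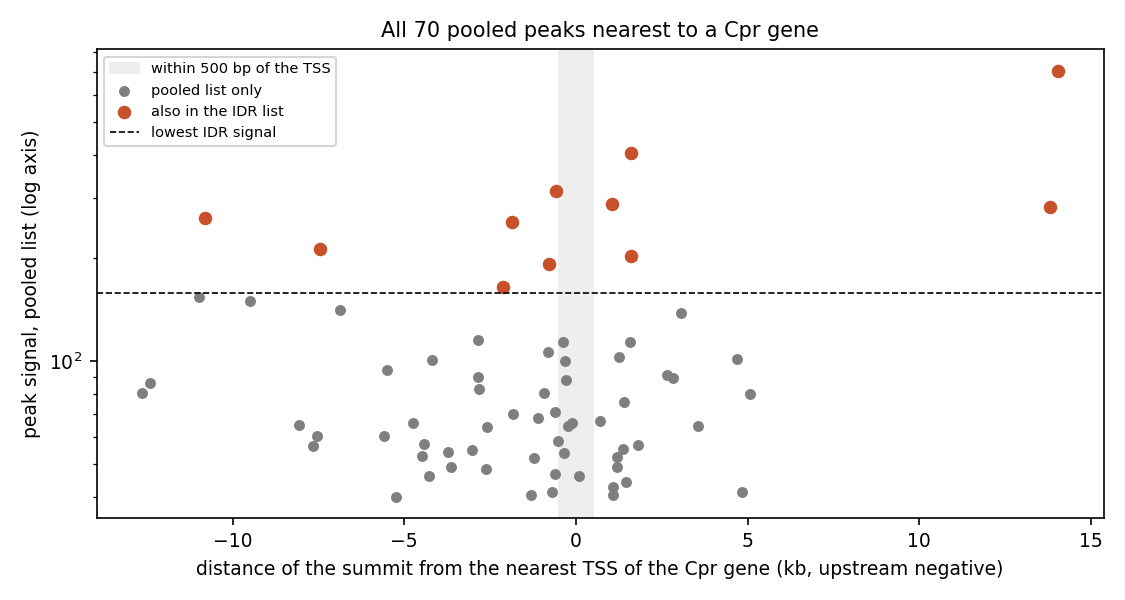
Distance of the summit from the nearest TSS (horizontal axis, kb, upstream negative) and signal (vertical axis, log scale) of the 70 pooled peaks that fell to Cpr genes. The 11 peaks that are also in the IDR list all lie outside the shaded 500 bp on either side of the TSS, and the 7 inside it have signals of 113.4 or less.

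Among members without an IDR peak, the strongest pooled peaks were weak. They belonged to Cpr11A (signal 114.9, rank 8801, 2844 bp from the TSS), Cpr73D (113.5, rank 8944, 1570 bp) and Cpr65Av (113.4, rank 8955, 366 bp). Cpr65Az (106.4, rank 9708, 815 bp) and Cpr78Cc (102.4, rank 10189, 1264 bp) came next. In all, 20 members had a pooled peak but no IDR peak, and 28 had no peak in the pooled list or in any replicate list. Of all protein-coding genes, 45.1% had a pooled peak and 22.1% an IDR peak. The share of all genes without a peak in any list was not computed. Neither count is therefore read as particular to Cpr genes.

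The share with an IDR peak was much the same in large and small arrays, and differences between chromosome arms were not tested. The 70 genes fall into 33 cytological groups, of which 10 hold 3 or more members and 45 genes together. Of those 45, 5 had an IDR peak, 1 each in 65A, 65E, 67F, 76B and 78C, and of the 25 genes in smaller groups 3 had one. By arm, 5 of 35 Cpr genes on 3L had an IDR peak, where 24.1% of all genes had one, 2 of 5 on 3R (against 21.6%) and 1 of 5 on 2L (against 22.9%). On 2R it was 0 of 21, where 19.5% of all genes had a peak, and on X 0 of 4 (against 22.6%). The 2R members include the arrays of 7 genes in 47E and 8 genes in 49A, which had 1 and 2 pooled peaks between their members, at best rank 29249 and 24090. Arrays on 3L were also empty: 62B, 64A and 72E, with 3, 4 and 3 members, had no IDR peak. A Cpr gene next to another Cpr gene had a peak in 5 of 41 cases, and one without a Cpr neighbour in 3 of 29.

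**Figure D4:**
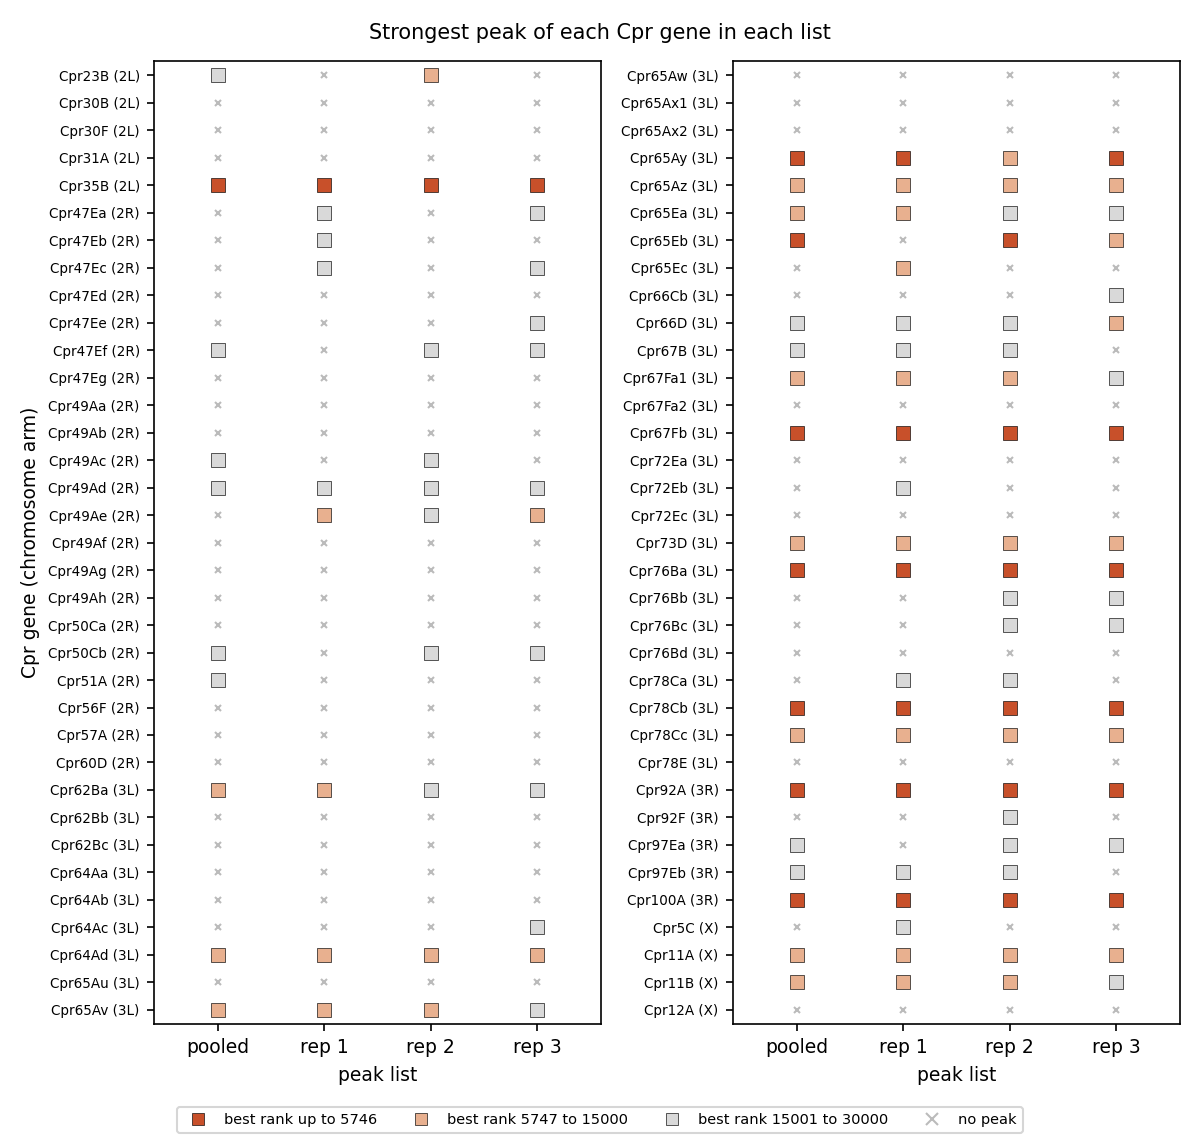
Best rank of any peak assigned to each of the 70 Cpr genes (rows, with chromosome arm) in the pooled list and in replicates 1, 2 and 3 (columns). Darker squares are stronger ranks, crosses mark no peak, and the 21 members on 2R have no square in the strongest class.

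Near-identical copies could affect 2 members. Around each gene start, the share of 32-base words found once on the arms was computed over 500 bp to either side. The median was 100% for Cpr genes and for all genes. It was 23.7% at Cpr65Ax1 and 27.9% at Cpr65Ax2, a duplicated pair, and above 90% at the other 68 members. How reads with several matches were treated is not stated, so the absence of a peak at that pair is uncertain.

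Many Cpr promoters held a TATA box at its usual position, where those of genes with an IDR peak within 500 bp of a TSS seldom did. The window from 250 bases before to 50 bases after each gene's 5′ end was searched on both strands. In a gene with several start sites, the peak may lie at another one than the 5′ end searched. TATAAA, the core of the TATA box, which positions the transcription machinery at many regulated genes, was somewhere in 49 of 70 Cpr promoters (70%), against 45.8% of all 13945 and 43.7% of the 1846 genes with an IDR peak within 500 bp. On the gene's own strand with its first base 36 to 24 bases before the start, it was in 31 of 70 (44.3%), against 6.70% and 2.65%. TATCGATA, the DNA replication-related element of broadly expressed genes, was in 1 Cpr promoter (1.43%), against 9.36% of all genes and 12.4% of those with a promoter peak. GGTCACACT, an element of the broad promoter factor M1BP, was in 0 of 70, against 6.05% and 9.26%. TAATTA was in 10 (14.3%, against 20.4% and 20.6%), and GAGAG in 23 (32.9%, against 29.7% and 34.9%). The mean GC content was 45.1% against 39.1% in both of the other groups.

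The 60 bases before the start of 5 of the Cpr genes named above are shown with their TATA box in capitals. Its share was the one farthest from that of genes with an IDR peak within 500 bp. Each is written 5′ to 3′ on the gene's strand, from the same RefSeq genome, and all are promoters without an IDR peak.
Cpr100A, chr3R:30867461-30867520, plus strand: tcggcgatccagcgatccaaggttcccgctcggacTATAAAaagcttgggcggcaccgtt
Cpr65Eb, chr3L:7088788-7088847, minus strand: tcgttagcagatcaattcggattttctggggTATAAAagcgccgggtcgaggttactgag
Cpr76Ba, chr3L:19518333-19518392, minus strand: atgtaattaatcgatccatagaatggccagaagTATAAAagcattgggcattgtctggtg
Cpr65Av, chr3L:6139975-6140034, minus strand: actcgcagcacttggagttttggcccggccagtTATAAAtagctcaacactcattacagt
Cpr78Cc, chr3L:21300520-21300579, plus strand: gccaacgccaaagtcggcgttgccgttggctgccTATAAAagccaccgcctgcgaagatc

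Over all genes, a TATA box in that position went with fewer peaks. Of all 935 such genes, 5.24% had an IDR peak within 500 bp, against 13.8% of the 13010 without it, and 12.0% against 22.8% had a peak at any distance. Of the 31 Cpr genes with the box, 3 had an IDR peak (9.68%), and of the 39 without it 5 had one (12.8%), with 0 promoter peaks in both. The promoter count of 0 was thus met among Cpr genes with and without the box. Whether promoter class accounts for the difference was not tested.

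**Figure D5:**
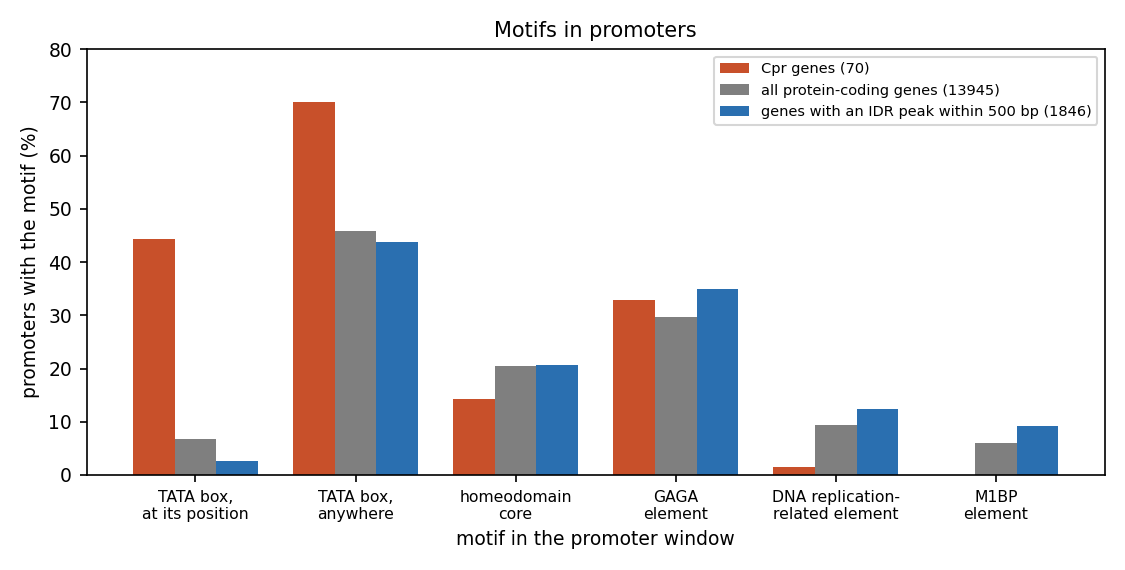
Share of promoters (vertical axis, percent) with each motif in the window of 250 bases before to 50 after the gene start, for the 70 Cpr genes, all 13945 protein-coding genes and the 1846 genes with an IDR peak within 500 bp of a TSS. The TATA box at its usual position is in 44.3%, 6.70% and 2.65% of them.

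Protein lengths of members with and without a peak overlapped. The 8 genes with an IDR peak encode proteins of 109 to 245 amino acids (median 191.5), and the 62 without encode 93 to 1231 (median 179). The median gene length was 975 bp for the 8 genes and 1113 bp for the 62, against 2166 bp for all protein-coding genes. The median territory was 5.66 kb for the 8 and 3.14 kb for the 62.

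Around the Cpr family, other structural cuticle genes also had few peaks, whereas a list of epidermal and moulting regulators had many. All these lists were written with earlier results of these data known, so their counts are description only. Of 29 further Rebers and Riddiford genes, such as the Lcp and Ccp84A genes, 1 had an IDR peak (3.45%, against 22.1% of all genes), namely l(3)mbn (signal 304.1, 3994 bp from the TSS). Of 26 Tweedle genes, another cuticle protein family, 2 had one (7.69%), Tb (233.8) and TwdlE (196.8). Of 10 obstructor and related chitin-binding genes, 0 had one. In none of these 3 lists was there a promoter peak. In the replicates' top lists they numbered 1.67 ± 0.577, 2 ± 0 and 0 ± 0 genes (SD, n = 3). The median territories of these 3 lists were 2.14, 2.78 and 3.13 kb, and of all genes with 2 to 5 kb 15.0% had an IDR peak.

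Genes for enzymes and matrix proteins of cuticle building were mixed, with shares above the 22.1% of all genes in the chitin and matrix lists and below it in the tanning list. Of 26 genes of chitin synthesis, assembly and turnover, 9 had an IDR peak (34.6%), 7 of them within 500 bp of a TSS. They include the chitinase gene Cht7 (signal 551.8, 181 bp from the TSS) and vermiform (verm), a chitin deacetylase gene (311.7, 1008 bp). Of 25 tanning and crosslinking genes, 3 had one (12%), all within 500 bp, among them the NADPH oxidase gene Duox (516.0) and Punch (Pu, 259.1), which encodes GTP cyclohydrolase. Of 11 genes for zona pellucida domain proteins of the apical matrix, 5 had one (45.5%), with nyo (506.5) and tyn (486.7) strongest. In the top lists these 3 lists numbered 7 ± 1, 3.33 ± 0.577 and 5.33 ± 0.577 genes (SD, n = 3). Their median territories were 4.77, 5.06 and 14.6 kb. An IDR peak was found for 15.0% of all genes with 2 to 5 kb and for 28.0% of those with 5 to 20 kb.

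Of 23 epidermal and moulting regulators, 20 had an IDR peak (87.0%), and 20 ± 0 did in the replicates' top lists (SD, n = 3). The strongest were at E23 (signal 1556), an ecdysone-induced transporter gene, and at the nuclear receptor gene Hr4 (1466). Grainyhead (grh), which activates cuticle and barrier genes in the epidermis, had 3 peaks (top signal 934.8), and ovo, which directs denticle formation, had 1 (428.9). The median territory of this list was 26.3 kb, against 3.36 kb for Cpr genes, and of all genes with over 20 kb 49.9% had a peak.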

How the data were processed

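Chromatin immunoprecipitation and sequencing was read from 5 deposited peak lists on dm6: 1 for each of 3 replicates, 1 pooled and 1 at an IDR threshold. Fragments were sonicated to 200 to 800 bp, per the labels. Per the deposited notes, each replicate list was derived from that replicate's alignment and 1 further file, taken to be the control since it also enters their control-normalized track. The pooled list was derived from all 3 alignments and that file, and the IDR list from the other 4 lists. Neither aligner, nor peak caller, nor IDR threshold is stated in the labels or notes. The deposited signal column is a peak height on a scale that differs between lists, so it was compared only within a list or by rank. The deposited −log10 q-value column was used only to describe the pooled peaks of Cpr genes, and the summit offset gave the summit. All 5746 IDR peaks are the highest of the pooled list. The lists hold no read counts, so depth is unknown and intervals cover counting error only.

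Summits were assigned to the nearest TSS of any transcript of a protein-coding gene (Ensembl release 115, dm6 coordinates). The rare summits equally near to different genes went to 1 of them, and none of those was a Cpr IDR peak. Lists of other genes were matched by symbol, and 8 of their names matched none. Assignment and summit matching were tested on simulated data. Python 3.11.15, pandas 2.3.3 and scipy 1.17.1 were used. No test of a gene list was made: counts stand beside those over all genes, and the exact sign-flip test over replicates is the only test. The members, lists and motifs were chosen with earlier results of these data known. Named genes are every Cpr gene with an IDR peak, the 5 others with the strongest pooled peak, and up to 2 members of each further list with the strongest IDR peak, to which grh, ovo and the few other Cpr genes named singly were added after their values were seen. The promoter comparison used all gene 5′ ends of the annotation, the position of the TATA box was added after the data were seen, and the protein consensus was not searched. Alternatives are given in the closing section.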

Additional observations from a re-analysis of the deposited data

How the results depend on the processing

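The IDR list could not be made anew without a replicate. Keeping the IDR peaks with a summit within 100 bp in both other replicates left 8 Cpr genes, 0 within 500 bp of a TSS, 11 peaks, a median signal of 262.1 and 31.6 peaks per Mb without replicate 1, 2 or 3. Since all 11 peaks are in all 3 full lists, these values could not change and say nothing of stability. The mean of the replicates' own top lists stayed at 7 Cpr genes, and the difference from all genes ranged from -13.3 to -12.5 percentage points. With 1 TSS a gene 7 Cpr genes had a peak, against 22.7% of all genes (Cpr78Cb was lost, median signal 258.2). Allowing non-coding genes gave 7, against 19.5% of all genes (Cpr92A was lost). With gene bodies and 2 kb around them it was 9, against 32.1% of all genes: Cpr31A, Cpr65Az and Cpr67Fa2 were gained, Cpr92A and Cpr65Eb lost. Of the stronger 2873 IDR peaks, 7 fell to 6 Cpr genes, with a median signal of 288.0, where 14.0% of all genes had a peak. With summits within 1 kb of a TSS only 2 peaks at 2 genes were left, Cpr67Fb and Cpr65Ay (median signal 253.3, 5.74 per Mb), where 15.2% of all genes had a peak. The promoter count of 0 likewise became 2 when 1 kb was taken in place of 500 bp. With the pooled list 28 Cpr genes had a peak, against 45.1% of all genes. In the replicates' lists the mean number of Cpr genes was 1.33 for the top 1000 peaks, 30.7 for all peaks and 1.67 within 1 kb, and the difference from all genes kept its sign (-4.03, -6.38 and -13.8 percentage points). Without Cpr35B, a setting added after the data were seen, Cpr territory held 24.1 peaks per Mb. Matching within 50 bp left 8 of the 11 peaks in all 3 replicates, and within 200 bp 11. No paired analysis was possible because there is 1 group. Unknown depth limits what the absence of a peak can show.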

Other observations

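Relaxed peaks were spread unevenly over the family. Of the 70 pooled peaks, 19 fell to Cpr35B and 8 to Cpr100A, the genes beside Pburs and tll. Cpr11A, Cpr73D and Cpr62Ba had 4 each. In the full lists of replicates 1, 2 and 3, Cpr35B had 17, 18 and 18 peaks and Cpr100A had 6, 7 and 6.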
